A study of Mus musculus with 24 samples.

Results

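The miR-15, miR-16, miR-195 and miR-497 family was taken as 6 mature mouse miRNAs that carry 1 seed: mmu-miR-15a-5p, mmu-miR-15b-5p, mmu-miR-16-5p, mmu-miR-195a-5p, mmu-miR-497a-5p and mmu-miR-322-5p, written below without the species prefix. They were found by their names on the array, 6 of 1881 mouse miRNAs measured, and each was represented by 2 probes. No measured value entered the rule, but the list was chosen with earlier results of these data known. Levels were read on single-colour (Cy3) Agilent miRNA microarrays in male C57BL/6NJcl mice, from the liver and from serum, with 24 arrays in 12 groups of 2. The NASH groups ate a choline-deficient high-fat diet (CDAHFD) supplemented with 0.1% methionine, a feeding model of non-alcoholic steatohepatitis (NASH), for 1, 2 or 6 weeks. The control groups ate the chow CE-2 for the same 1, 2 or 6 weeks. Feeding began after 1 week of acclimatization in animals purchased at 5 weeks of age, which were 7, 8 or 12 weeks old when sampled. The labels name no transgene or deletion in any group. The dye labelled 100 ng of total RNA from liver, and 2.5 ng of that from 200 µL of serum of heart blood. Nothing in the labels ties the 2 arrays of a group to 2 different animals, so p-values measure only the spread between arrays, which may be technical.

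A miRNA pairs with messenger RNAs mainly through its seed, bases 2 to 8 counted from its 5′ end, and lowers their translation and stability. Members of the miR-15 family share their seed and repress cell cycle and survival genes, among them cyclins, Cdk6 and Bcl2, so they are known as brakes on proliferation in many tissues, with miR-195 and miR-497 often studied in this role in liver cells. The members come from several loci, each a short cluster cut from a common primary transcript, which lets 1 seed be supplied from different promoters.

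The mature sequences are shown because the members are alike in the seed and differ behind it. They are RefSeq's (GRCm38.p6), written 5′ to 3′, with the seed in capitals; all 6 members were found in that table.
miR-15a-5p: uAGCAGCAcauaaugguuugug
miR-16-5p: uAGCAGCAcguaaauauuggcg
miR-15b-5p: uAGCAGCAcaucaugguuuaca
miR-195a-5p: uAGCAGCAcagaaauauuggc
miR-497a-5p: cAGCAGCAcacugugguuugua
miR-322-5p: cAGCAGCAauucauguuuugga
Outside the seed the members split into near copies and distant ones. miR-16-5p and miR-195a-5p, which lie on different chromosomes, had the same base at 19 of 21 positions, and miR-15a-5p and miR-15b-5p at 18 of 22. The neighbours miR-195a-5p and miR-497a-5p matched at 12 of 21 positions, and miR-15b-5p and miR-16-5p at 14 of 22. Whether RNA of one near copy also bound the other's probe was not tested.

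On GRCm38.p6, miR-15a-5p lay at chr14:61632075-61632096 and the first copy of miR-16-5p at chr14:61631936-61631957, both on the minus strand inside the long non-coding gene Dleu2 and 117 bases apart. miR-15b-5p lay at chr3:69009775-69009796 and the second copy of miR-16-5p at chr3:69009918-69009939, on the plus strand within Smc4, which encodes a condensin subunit, with 121 bases between them. miR-497a-5p at chr11:70234730-70234751 and miR-195a-5p at chr11:70235062-70235082 were 310 bases apart on the plus strand. miR-322-5p lay at chrX:53054306-53054327 on the minus strand, inside the long non-coding gene C430049B03Rik. The mature miR-16-5p of its 2 copies is identical, so its signal belonged to both the chromosome 14 and the chromosome 3 locus.

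The extraction software flagged 337 to 379 miRNAs as detected on NASH liver arrays, against 253 to 307 on control liver arrays, and 313 to 399 on NASH serum arrays, against 235 to 362 on control serum arrays. No miRNA spot was saturated. Below, a relative signal is a probe's processed signal divided by the array's 75th percentile over probes well above background on every array of that tissue, and a miRNA is given by its brightest probe. That percentile was itself higher on NASH arrays, by 0.43 on the log2 scale in liver (exact two-sided test permuting diet labels inside each week, p = 0.0185) and by 0.78 in serum (p = 0.0278). Hepatocyte miRNAs were well above background on all liver arrays (5 of 5 listed), and muscle miRNAs on none of the control livers (0 of 6). The 4 arrays of a tissue and week shared a slide, so each weekly difference is also a within-slide difference; NASH arrays lay in other slide columns than control arrays, so diet and column cannot be told apart. In a bulk sample, fewer cells of a type and less RNA per cell cannot be told apart.

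In liver the family did not move as a block. miR-15b-5p was 1.94-fold higher with the NASH diet averaged over the 3 weeks, miR-497a-5p was 1.47-fold higher, and miR-15a-5p fell to 0.706 of the control level. miR-16-5p, miR-195a-5p and miR-322-5p did not pass the test. Of the 6 members, 3 were called at an adjusted p under 0.05 (limma over all tested miRNAs, Benjamini-Hochberg adjustment), 2 higher and 1 lower, against a background of 55% of the 318 miRNAs tested (95 higher, 80 lower). The members' median log2 difference was -0.02, against 0.04 over all miRNAs tested, so the share of members called was near the background.

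**Figure D1:**
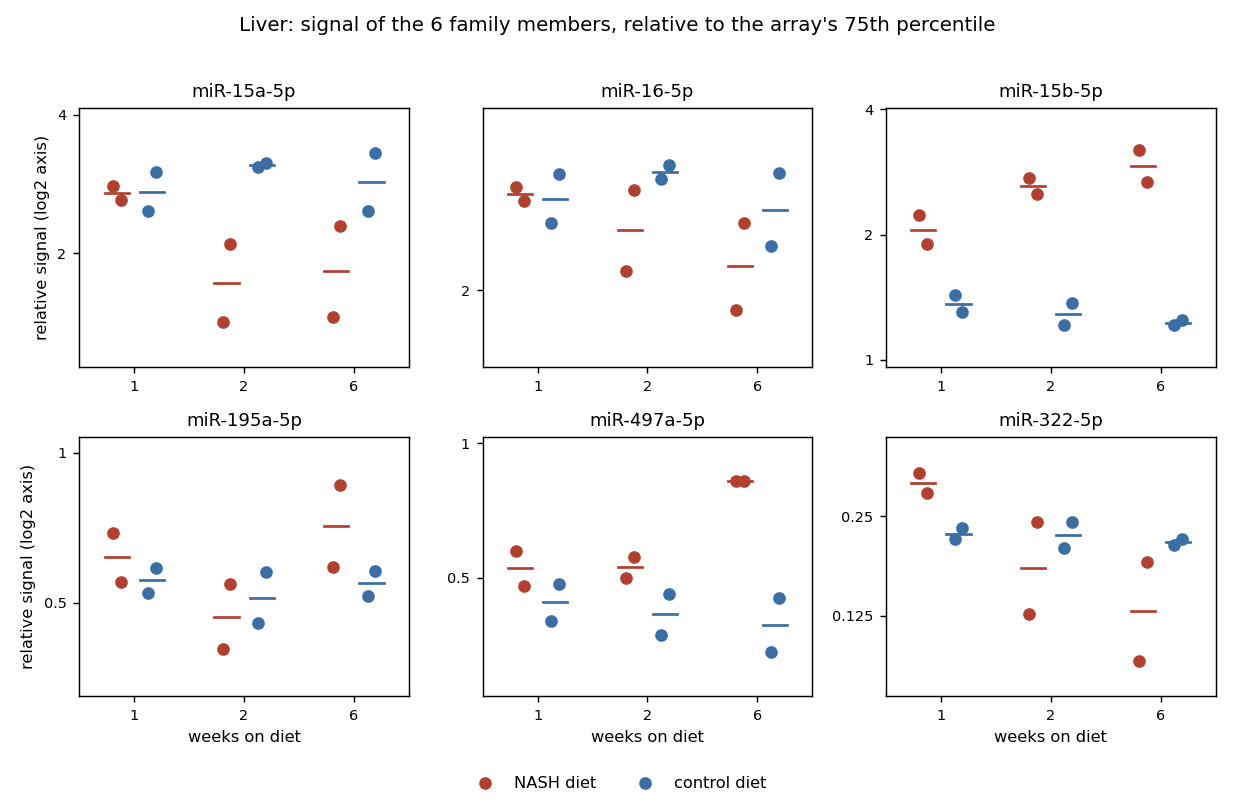
Relative signal of each member on the 12 liver arrays (log2 axis), by week on diet, with NASH arrays left of control arrays; each point is 1 array and each bar the geometric mean of 2. All NASH points of miR-15b-5p (1.90 to 3.20) lie above all control points (1.21 to 1.43).

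From the chromosome 3 locus, miR-15b-5p in liver had relative signals of 2.22 and 1.90 on the NASH arrays of week 1, against 1.43 and 1.30 on control arrays. At week 2 it had 2.74 and 2.50 with the NASH diet, against 1.21 and 1.37 with control chow. At week 6 the values were 3.20 and 2.68 on NASH arrays and 1.21 and 1.25 on control arrays. Every NASH array was higher than every control array, with no overlap in any week. The log2 difference was 0.59 ± 0.12 (SE, n = 2 against 2) at week 1, 1.02 ± 0.12 at week 2 and 1.25 ± 0.12 at week 6 (limma, adjusted p = 0.0165, 7.72e-04 and 2.73e-04). Averaged over weeks it was 0.96 ± 0.07 (adjusted p = 2.95e-05), and it passed the test under every alternative processing run. The week 1 call alone was lost without control replicate 1 or 2 or NASH replicate 1 of week 1, or control replicate 1 of week 6 (adjusted p up to 0.109), and under 5 of 12 alternatives (up to 0.273); that of week 2 was lost when scaled over all probes (0.139).

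From the chromosome 14 locus, miR-15a-5p in liver had 2.80 and 2.62 on NASH arrays of week 1, against 2.47 and 3.00 on control arrays, and these overlapped. At week 2 the values were 1.42 and 2.10 with the NASH diet and 3.08 and 3.14 with control chow. At week 6 they were 1.46 and 2.30 on NASH arrays, against 2.48 and 3.31 on control arrays. NASH arrays were thus lower than control arrays at weeks 2 and 6 but not at week 1. The log2 difference was -0.01 ± 0.27 at week 1, -0.85 ± 0.27 at week 2 (adjusted p = 0.0358) and -0.65 ± 0.27 at week 6 (adjusted p = 0.102). The mean over weeks was -0.50 ± 0.15 (SE, n = 6 against 6, limma adjusted p = 0.0269). This call was lost when arrays were left unscaled (-0.07, adjusted p = 0.856), under quantile normalization (-0.14, adjusted p = 0.427), when scaled over all probes (-0.48, adjusted p = 0.209) and with no filter on dim miRNAs (adjusted p = 0.19). It was also lost without any 1 of 8 arrays, that is, all except control replicate 1 of weeks 1 and 6 and NASH replicate 2 of weeks 2 and 6 (adjusted p up to 0.0666). The week 2 call was lost without any 1 of 6 arrays, namely control replicate 1 and both NASH arrays of week 1, and both control arrays and NASH replicate 1 of week 2 (adjusted p up to 0.196), and under 5 of 12 alternatives (up to 0.493).

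miR-16-5p, the product of both loci, was between those values. In liver its relative signal ran from 1.86 through a median of 2.66 to 2.91 on NASH arrays, against 2.35, 3.03 and 3.16 on control arrays, and the groups overlapped. Its log2 difference averaged over weeks was -0.19 ± 0.12 (95% interval -0.48 to 0.09, limma adjusted p = 0.22). Under quantile normalization the difference turned to 0.25 (adjusted p = 0.00993), and unscaled to 0.24 (adjusted p = 0.49).

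From the chromosome 11 locus, miR-497a-5p in liver had 0.574 and 0.479 on NASH arrays of week 1, against 0.401 and 0.484 on control arrays. At week 2 it had 0.50 and 0.556 with the NASH diet, against 0.372 and 0.460 with control chow. At week 6 it had 0.821 and 0.822 on NASH arrays, against 0.340 and 0.450 on control arrays. The groups overlapped at week 1 and stood apart at weeks 2 and 6. The log2 difference was 0.25 ± 0.18 at week 1 (adjusted p = 0.436), 0.35 ± 0.18 at week 2 (adjusted p = 0.155) and 1.07 ± 0.18 at week 6 (adjusted p = 0.00261). Averaged over weeks it was 0.56 ± 0.10 (SE, n = 6 against 6, limma adjusted p = 0.00289), and scaling over all probes, at a like value of 0.57, raised the adjusted p to 0.108. Its neighbour miR-195a-5p ran from 0.404 through a median of 0.571 to 0.862 on NASH livers, against 0.456, 0.550 and 0.587 on control livers. These ranges overlapped, and the difference of 0.14 ± 0.13 did not pass the test (95% interval -0.18 to 0.45, adjusted p = 0.42).

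The X-chromosomal miR-322-5p had the lowest liver signals at week 6, with 0.0910 and 0.182 on NASH arrays, against 0.204 and 0.213 on control arrays. At week 1 the order was the other way, with 0.339 and 0.294 on NASH arrays and 0.213 and 0.230 on control arrays. The mean difference was -0.17 ± 0.21 (95% interval -0.68 to 0.33, limma adjusted p = 0.531), and unscaled it was 0.26.

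Over time, 1 member was called at week 1 (miR-15b-5p, background 18.2%), 2 at week 2 (miR-15b-5p and miR-15a-5p, background 44.3%) and 2 at week 6 (miR-15b-5p and miR-497a-5p, background 36.8%). No member's liver diet difference was called unequal between weeks by limma's F-test (0 of 6; 2.2% of miRNAs tested); miR-15b-5p and miR-497a-5p had unadjusted p under 0.05 (adjusted p = 0.137 and 0.173). Between weeks 6 and 2, which shared a slide in liver, no member was called in NASH livers (limma, background 4.09%), although miR-195a-5p and miR-497a-5p had unadjusted p under 0.05, with week 6 minus week 2 differences of 0.61 ± 0.23 and 0.64 ± 0.18 (adjusted p = 0.218 and 0.116). In control livers no member was called and none had an unadjusted p under 0.05 (limma, background 0%, with 50 of all miRNAs at an unadjusted p under 0.05). Control livers therefore gave no called change against which age could be read.

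**Figure D2:**
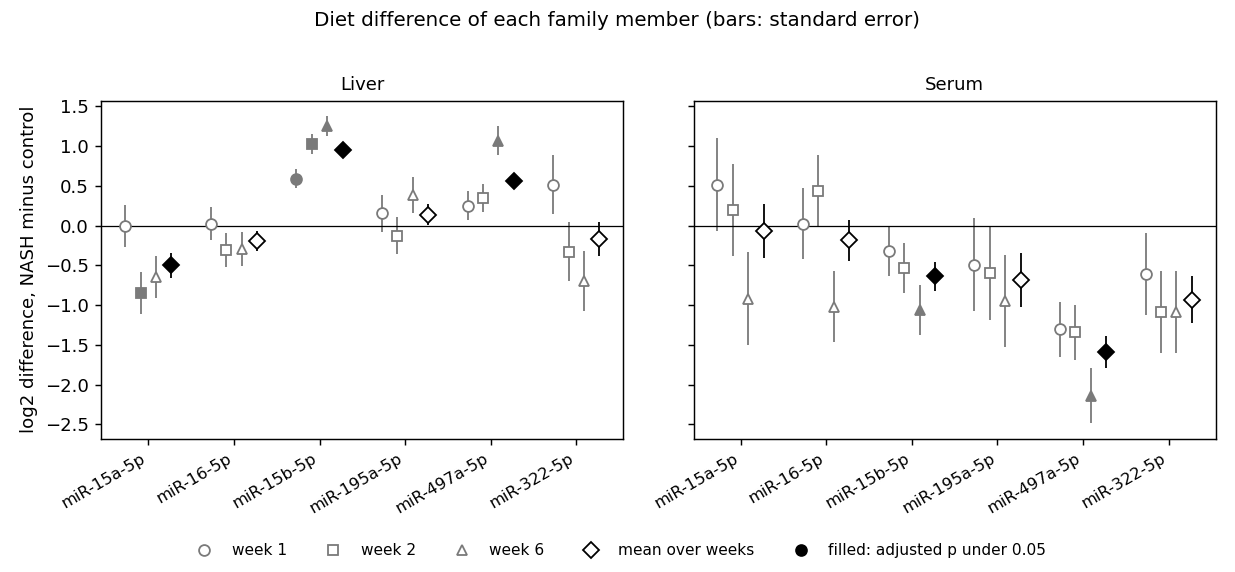
Log2 difference, NASH minus control, of each member in liver and serum (vertical axis), for each week and for the mean over weeks; bars are standard errors and filled symbols have an adjusted p under 0.05. miR-15b-5p and miR-497a-5p are positive in liver (0.96 and 0.56 over weeks) and negative in serum (-0.64 and -1.60).

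In serum the differences ran in 1 direction only among the members called. miR-497a-5p fell to 0.331 of its control level and miR-15b-5p to 0.642, averaged over weeks. The call of miR-15b-5p rested on the processing: its value was 0.04 when arrays were scaled over all probes and 0.15 unscaled. With the replicate block, miR-497a-5p was still called (-1.73, adjusted p = 0.00954) and miR-15b-5p was not (-0.73, adjusted p = 0.0554); the block leaves out the array whose title has no number. Of 6 members, 2 were called, against 28.1% of 334 miRNAs in either direction and 20.7% lower (25 higher, 69 lower). The members' median log2 difference was -0.66, against -0.17 over all miRNAs tested.

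Serum signals were close to the detection limit for part of the family. miR-15a-5p, miR-15b-5p and miR-16-5p were well above background on 12 of 12 serum arrays, miR-497a-5p on 11, miR-322-5p on 9 and miR-195a-5p on 8. In liver all 6 members were above it on 12 of 12 arrays. Values below a floor of 0.0381 in serum were set to it before the log2 step, so a member's NASH-minus-control difference that meets the floor is understated, while a difference between 2 members may move either way.

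**Figure D3:**
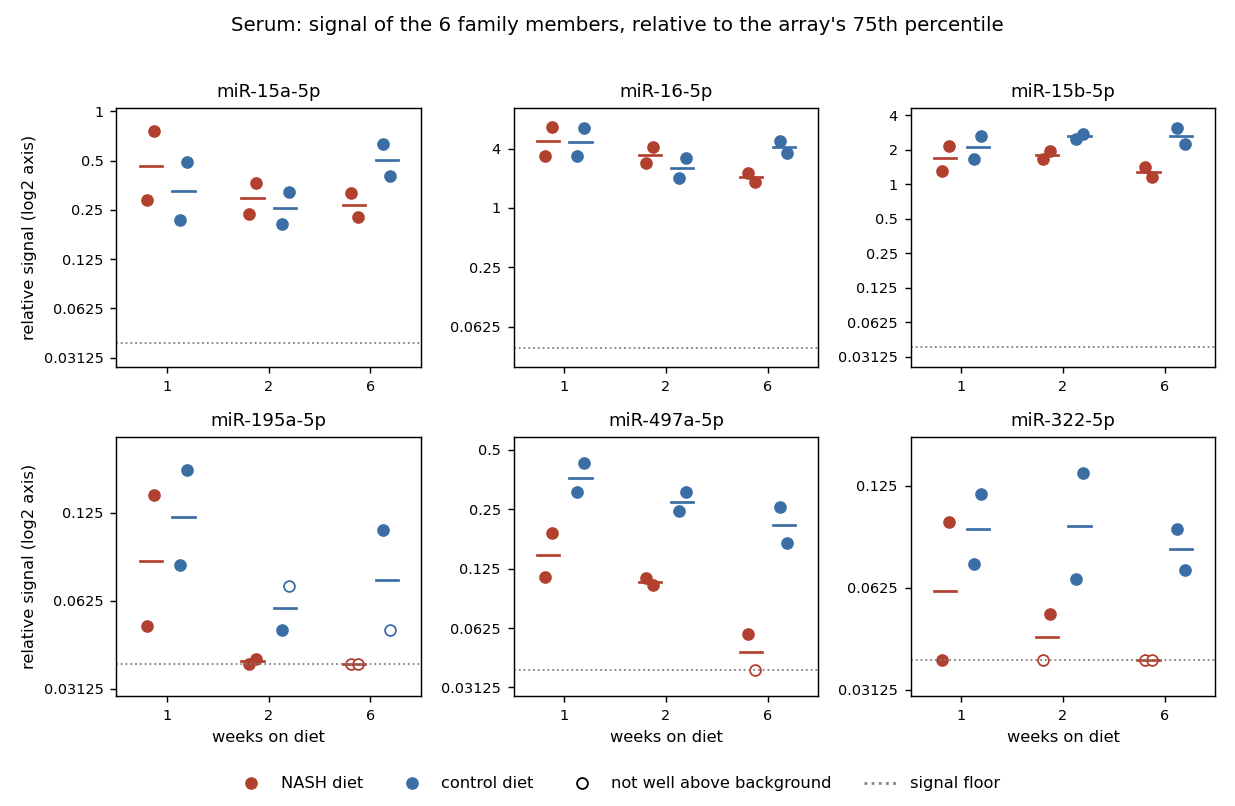
Relative signal of each member on the 12 serum arrays (log2 axis), by week on diet, with NASH arrays left of control arrays; open points were not well above background, the dotted line is the floor of 0.0381 and bars are geometric means of 2 arrays. The NASH points of miR-497a-5p lie below the control points within each week.

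miR-497a-5p in serum had 0.113 and 0.190 on NASH arrays of week 1, against 0.306 and 0.428 on control arrays. At week 2 it had 0.113 and 0.103 with the NASH diet, against 0.245 and 0.305 with control chow. At week 6 it had 0.0583 and 0.0308 on NASH arrays, the lower one under the floor and not well above background, against 0.257 and 0.168 on control arrays. Each NASH array was lower than both control arrays of its week. The log2 difference was -1.30 ± 0.35 at week 1 (adjusted p = 0.116), -1.34 ± 0.35 at week 2 (adjusted p = 0.0591) and -2.14 ± 0.35 at week 6 (adjusted p = 0.00816). Averaged over weeks it was -1.60 ± 0.20 (SE, n = 6 against 6, limma adjusted p = 0.0018), and it ranged from -1.65 to -0.84 over the other alternatives, with the highest adjusted p, 0.0601, when scaled over all probes. The week 6 call was lost without NASH replicate 2 of that week (adjusted p = 0.0683), and under 3 of 11 alternatives, unscaled, scaled over all probes and with no filter (up to 0.11). The dimmer probe of miR-497a-5p, well above background on 5 of 12 serum arrays, gave -0.53 over weeks.

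miR-15b-5p in serum had 1.31 and 2.16 on NASH arrays of week 1, against 1.67 and 2.64 on control arrays, which overlapped. At week 2 it had 1.66 and 1.96 with the NASH diet, against 2.50 and 2.74 with control chow. At week 6 it had 1.41 and 1.15 on NASH arrays, against 3.11 and 2.27 on control arrays. The log2 difference was -0.32 ± 0.31 at week 1, -0.53 ± 0.31 at week 2 and -1.06 ± 0.31 at week 6 (limma, adjusted p = 0.859, 0.337 and 0.0472). Over weeks it was -0.64 ± 0.18 (adjusted p = 0.0338). That call was lost without any 1 of 9 arrays, that is, all except control replicate 1 and NASH replicate 2 of week 1 and control replicate 2 of week 6 (values from -0.76 to -0.49, adjusted p up to 0.112). The week 6 call was lost without any 1 of 10 arrays, all except the NASH arrays of week 1 (adjusted p up to 0.236), under 9 of 12 alternatives (values up to -0.0015) and with the replicate block (-1.33, adjusted p = 0.0840).

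miR-15a-5p and miR-16-5p stayed short of the threshold in serum. miR-16-5p had 3.39 and 6.65 on NASH arrays of week 1, against 3.38 and 6.44 on control arrays. At week 2 it had 2.86 and 4.11 with the NASH diet, against 2.01 and 3.18 with control chow. At week 6 it had 2.28 and 1.83 on NASH arrays, against 4.76 and 3.61 on control arrays. Only at week 6 did the groups stand apart, at a log2 difference of -1.02 ± 0.44 (adjusted p = 0.148), and the mean over weeks was -0.19 ± 0.26 (95% interval -0.79 to 0.42, adjusted p = 0.646). miR-15a-5p ran from 0.225 through a median of 0.301 to 0.753 on NASH arrays, against 0.205, 0.361 and 0.634 on control arrays, with a mean difference of -0.07 ± 0.34 (95% interval -0.86 to 0.72, adjusted p = 0.925). Both signs depended on the scaling: unscaled, the mean differences were 0.72 for miR-15a-5p and 0.60 for miR-16-5p, neither called.

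The remaining members had weak serum signals. miR-322-5p ran from under the floor to 0.0980 on NASH arrays, against 0.0664 to 0.136 on control arrays, with a mean difference of -0.93 ± 0.30 (limma, adjusted p = 0.0542), which passed the test under 4 of 11 alternatives. miR-195a-5p ran from under the floor to 0.144 on NASH arrays, against 0.0497 to 0.175 on control arrays, with a mean difference of -0.68 ± 0.34 (adjusted p = 0.187), which passed under 2 of 11. At week 6 neither was well above background on a NASH array. The limma difference of miR-322-5p was then -1.09 ± 0.51 (adjusted p = 0.175), with an interval of -2.30 to 0.11 that included no difference. For these arrays, the lower bound of its control-to-NASH ratio in relative signal was 2.45-fold (2 of 2 control arrays measured). This bound sets the control mean against the lowest signal well above background on each NASH array, or the probe's own signal where that was higher. It depends on the scaling and carries no sampling error, so it describes these arrays only. The log2 scaling percentile was 8.40 and 8.67 on the NASH arrays of that week, against 7.39 and 7.57 on control arrays. For miR-195a-5p only 1 of 2 control arrays measured it (0.109; the other read 0.0498), so no bound is given (adjusted p = 0.301).

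By week in serum, limma called no member at week 1 (background 2.4%) and none at week 2 (background 7.19%), with miR-497a-5p alone at an unadjusted p under 0.05 in each. At week 6 it called 2 members, miR-497a-5p and miR-15b-5p (background 23.1%), and with the replicate block 1, miR-497a-5p. No member's serum difference was called unequal between weeks, and none had an unadjusted p under 0.05 (limma F-test, background 0%, with 30 of all miRNAs at an unadjusted p under 0.05). Between weeks 2 and 1, which shared a slide in serum, no member was called or had an unadjusted p under 0.05 on the NASH diet (background 0%, 14 miRNAs at an unadjusted p under 0.05) or on control chow (background 1.5%).

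The diet difference of a member was then compared between the tissues in 1 limma fit over all 24 arrays. This fit has its own scaling probes, and the diet differences shifted with them. In liver, miR-16-5p had mean log2 signals of 0.22 (NASH diet) and 0.07 (control chow) there, against 1.32 and 1.51 on the liver scale. For miR-322-5p they were -3.48 and -3.65, against -2.38 and -2.21. The diet difference was called lower in serum than in liver for 4 of 6 members. Of the 225 miRNAs tested, 52% were called in either direction and 42.7% were called lower. The median over all miRNAs tested was -0.53. For miR-497a-5p, serum minus liver was -2.57 ± 0.25 (adjusted p = 4.19e-07), and for miR-15b-5p it was -1.96 ± 0.25 (adjusted p = 8.49e-06). For miR-322-5p it was -1.40 ± 0.39 (adjusted p = 0.00714) and for miR-195a-5p -1.37 ± 0.36 (adjusted p = 0.00418). With each tissue scaled on its own 12 arrays, an alternative chosen after seeing the data, miR-497a-5p and miR-15b-5p were still called (-2.15 and -1.59) and miR-322-5p and miR-195a-5p were not (-0.76 and -0.82, adjusted p = 0.0965 and 0.0727). miR-15a-5p (0.07 ± 0.36) and miR-16-5p (-0.35 ± 0.28) did not pass the test.

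Levels were also set between tissues, on a scale common to all 24 arrays. RNA amount went wholly with tissue, at 100 ng on every liver array and 2.5 ng on every serum array. Slide went with tissue in part. Neither can be told apart from tissue in this fit. On the NASH diet limma called 5 of 6 members different between liver and serum (background 79.6%), and on control chow 4 of 6 (background 89.8%). miR-195a-5p had medians of 0.272 in liver and 0.0245 in serum on the NASH diet, and 0.196 in liver and 0.0453 in serum on control chow. Liver minus serum was 3.31 ± 0.25 on the NASH diet (adjusted p = 1.57e-09) and 1.94 ± 0.25 on control chow (adjusted p = 1.33e-06) on the log2 scale. miR-15a-5p was also higher in liver, by 2.19 ± 0.25 on the NASH diet and 2.26 ± 0.25 on control chow. With slide as a block, tissue was read from differences within slides, which assumes equal week effects in both tissues and is less precise. There the control chow calls of miR-195a-5p and miR-15a-5p were lost (1.28 and 1.27, limma adjusted p = 0.17 and 0.177). A call lost there need not be a slide effect. miR-497a-5p was higher in liver on the NASH diet (2.37 ± 0.18) and did not differ past the threshold on control chow (-0.20 ± 0.18, adjusted p = 0.294), where its sign turned under 7 of 13 alternatives, 5 of which called it higher in liver. miR-322-5p likewise was called on the NASH diet (1.88 ± 0.28) and not on control chow (0.47 ± 0.28, adjusted p = 0.117). The NASH call was lost with slide as a block (adjusted p = 0.0517), and 6 of 13 alternatives called it higher in liver on control chow (up to 2.43). miR-15b-5p showed no called difference on the NASH diet (0.24 ± 0.18, adjusted p = 0.22), although 7 of 14 alternatives called it higher in liver (up to 1.34), and was lower in liver on control chow (-1.72 ± 0.18, adjusted p = 6.82e-08). miR-16-5p was lower in liver than in serum on both diets (-0.80 ± 0.20 and -1.16 ± 0.20); the signs for miR-16-5p on both diets and miR-15b-5p on control chow turned when arrays were unscaled or scaled over all probes. With each tissue scaled on its own miR-16-5p was called on neither diet, and with slide as a block not on the NASH diet (-0.68, adjusted p = 0.363).

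Members were also compared with each other as differences between 2 members on the same array, 15 pairs in each tissue. Dividing an array by 1 number leaves such a difference as it is unless a value meets the floor, which touched the serum values of miR-195a-5p, miR-322-5p and miR-497a-5p. In liver 11 of 15 pairs had unequal diet differences at an adjusted p under 0.05, and in serum 10 of 15 (exact two-sided test permuting diet labels inside each week, adjusted over 30 tests; the smallest p it can give is 0.00926). Pairs of other miRNAs were not tested, so these counts have no background and are not shown to be particular to the family. The 15 pairs are built from 6 members and are not independent. Quantile normalization, an alternative for pairs chosen after seeing the data, called 6 in liver, and in serum normexp background correction called 6, as did leaving out control replicate 1 or NASH replicate 2 of week 1. With labels exchanged only between same-numbered serum arrays (the replicate block) 0 serum pairs were called; the smallest p that test can give is 0.0625, so it could call none. All 3 pairs that share a locus were called in liver, and 2 of 3 in serum. Those with miR-16-5p, whose signal belongs to both loci, do not compare members of 1 cluster alone. Only miR-195a-5p with miR-497a-5p does. Across tissues, 6 pairs were called in both with opposite sign and 1, miR-15b-5p with miR-497a-5p, with the same sign; the liver call of that pair was lost without any 1 of 6 arrays (exact permutation, adjusted p up to 0.0884).

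On chromosome 3, miR-15b-5p exceeded miR-16-5p in its liver diet difference by 1.15 on the log2 scale, with 6 of 6 NASH arrays above the control mean of their week (exact permutation p = 0.00926, adjusted p = 0.0253). In serum it fell short of it by 0.45, with 0 of 6 NASH arrays above the control mean of their week (exact permutation p = 0.0185, adjusted p = 0.0347), a call lost without control replicate 1 or NASH replicate 2 of week 1 (adjusted p up to 0.0926). On chromosome 14, miR-15a-5p minus miR-16-5p was -0.31 in liver (0 of 6 arrays above, adjusted p = 0.0253 by exact permutation) and 0.12 in serum (4 of 6 above, adjusted p = 0.486). On chromosome 11, miR-195a-5p minus miR-497a-5p was -0.42 in liver (0 of 6 above, adjusted p = 0.0253) and 0.91 in serum (6 of 6 above, adjusted p = 0.0253) by the same exact permutation. The liver value of that pair was lost without control replicate 1 of week 6 (exact permutation, adjusted p = 0.0631) and under quantile normalization (adjusted p = 0.0521). The serum value, which meets the floor, was 0.62 with the floor at 0.5 of its value and 0.40 with normexp, and was called under all 8 alternatives other than the replicate block. The near copies miR-15a-5p and miR-15b-5p, from different loci, stood 1.46 apart in liver (-1.46, adjusted p = 0.0253) and 0.57 apart in serum, where the sign was the other way (exact permutation, adjusted p = 0.0347). The serum call was lost without control replicate 1 or NASH replicate 2 of week 1 or of week 2 (adjusted p up to 0.0884) and with normexp (0.0654).

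**Figure D4:**
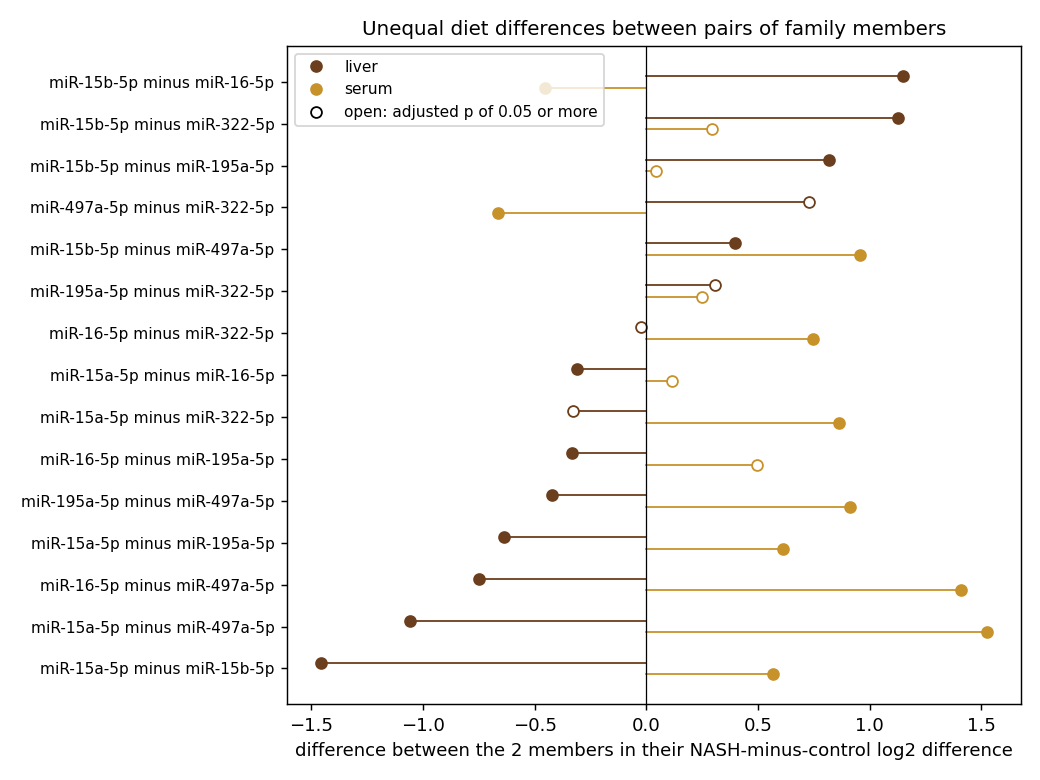
For each of the 15 pairs of members, the difference between their NASH-minus-control log2 differences (horizontal axis) in liver and serum; filled points have an adjusted p under 0.05 by exact permutation. The pair miR-15b-5p minus miR-16-5p is at 1.15 in liver and -0.45 in serum, and the pair miR-15a-5p minus miR-15b-5p at -1.46 and 0.57.

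Of 24 listed miRNAs that are cluster partners or carry the same seed, few had a measurable signal. In liver 1 was tested, miR-503-5p, the X-linked neighbour of miR-322-5p, at 0.01 ± 0.03 (limma, adjusted p = 0.726). Its difference was 0 at weeks 1 and 6, where its values met the floor, and 0.04 at week 2. On control livers 0 of the 24 were well above background. The small standard error therefore does not measure an absence of change. In serum 3 were tested, miR-15a-3p, miR-16-1-3p and miR-195a-3p, the opposite strands of members' hairpins, and none was called (-0.11, -0.04 and -0.02). The opposite strands thus gave no second reading of the loci. The relatives miR-103-3p and miR-107-3p carry the seed bases shifted by 1 position, as their sequences show.
miR-103-3p: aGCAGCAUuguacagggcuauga
miR-107-3p: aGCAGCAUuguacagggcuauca
Both fell in liver, by 0.29 ± 0.05 and 0.38 ± 0.08 on the log2 scale (limma, adjusted p = 0.00325 and 0.00465). In serum miR-103-3p fell by 1.05 ± 0.29 (adjusted p = 0.0333) and miR-107-3p, at -0.17 ± 0.22, did not pass the test (adjusted p = 0.619).

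By Pearson correlation over the 12 arrays of a tissue, given as a description since the arrays share diets, weeks and slides, the miRNA whose liver pattern was most like miR-15b-5p was miR-34a-5p (r = 0.99), followed by miR-342-3p (0.99) and miR-652-3p (0.98), among 165 candidates. miR-34a is known as a target of p53 and miR-342 for its expression in lymphocytes. For miR-497a-5p these were miR-199b-5p (0.93), miR-199a-5p (0.92) and miR-214-3p (0.86), which are known from stellate cells and fibroblasts. Those most like miR-195a-5p were miR-199a-3p (0.83), miR-200b-3p (0.74) and miR-200a-3p (0.72). For miR-15a-5p they were miR-101c (0.97), miR-101a-3p (0.96) and miR-19b-3p (0.96), and for miR-322-5p miR-301a-3p (0.94), miR-152-3p (0.91) and miR-374c-5p (0.91). For miR-16-5p in liver miR-126a-5p (0.95) was first. In serum miR-16-5p was most like miR-20a-5p (0.92), miR-20b-5p (0.91) and miR-451a (0.91), the last a red cell miRNA, among 152 candidates, miR-15b-5p was most like miR-142a-3p (0.94), and miR-15a-5p most like let-7i-5p (0.88).

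Marker miRNAs of other cell types moved with several of these results, and their part in them was not tested. Stellate cell and fibroblast miRNAs were well above background on all liver arrays (4 of 4), with summed relative signals of 1.12 to 1.86 on NASH livers, against 0.674 to 0.947 on control livers. All 4 rose in liver and 3 of 4 fell in serum, where the sums were 0.107 to 0.687 on NASH arrays and 0.837 to 1.60 on control arrays, the directions of miR-497a-5p. Leukocyte miRNAs summed to 2.82 to 4.26 on NASH livers, with 6 of 6 above background, against 1.06 to 1.52 on control livers, with 3 to 5 of 6; 5 of 6 rose. Red cell miRNAs summed to 1.15 to 4.29 on NASH livers, against 3.74 to 6.72 on control livers, with 2 to 4 of 5 above background on NASH arrays and 3 to 4 on control arrays; 3 of 4 tested fell, as did miR-15a-5p. The log2 ratio of the red cell miR-451a to miR-23a-3p is a common index of haemolysis in serum. On NASH livers this ratio was lower by 1.59 (exact permutation p = 0.00926), and what it reflects in liver was not tested. In serum that index was -0.11 and -0.25 on the NASH arrays of week 6, against 2.23 and 2.50 on the control arrays, the week that held the lowest NASH array of miR-16-5p and of miR-15a-5p. Over all weeks the serum index differed by -0.44 (exact permutation p = 0.417). Of the red cell miRNAs in serum, 3 of 4 tested fell over weeks (median -1.35) and 4 of 4 at week 6 (median -2.05), as miR-15b-5p and miR-497a-5p did; their sums were 8.21 to 72.0 on NASH arrays and 30.9 to 67.4 on control arrays, with 2 to 4 of 5 above background on NASH arrays and 3 to 4 on control arrays. Of 4 leukocyte miRNAs tested in serum 1 rose and 2 fell, with sums of 5.69 to 20.7 on NASH arrays, against 5.57 to 12.2 on control arrays. Hepatocyte miRNAs (5 of 5 lower in liver and 5 of 5 higher in serum) went the other way from miR-15b-5p and miR-497a-5p in both tissues. In liver they fell as miR-15a-5p did, and so did 2 of 3 vessel wall miRNAs tested. Muscle miRNAs fell in serum for 2 of 5 tested, as miR-15b-5p and miR-497a-5p did. Their sums were 1.86 to 8.98 on NASH arrays, all below the 13.7 to 29.6 of control arrays.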

How the data were processed

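Each of the 24 arrays was hybridised with Cy3-labelled RNA of 1 sample. The deposited intensities are Agilent Feature Extraction's processed signals (version 11.5 per the submitters' processing notes, 11.5.1.1 per the file headers); they equalled the background-subtracted signals and carried no normalization between arrays. Control and outlier spots were dropped, and a probe's remaining spots (15 printed per array) were averaged. Signals were divided by each array's 75th percentile over those probes that every array of the fit measured well above background (299 probes in liver, 253 in serum, 163 in both), raised to a floor (the 5th percentile of signals well above background) and taken as log2. The brightest probe stood for a miRNA, which was tested if well above background on at least 2 arrays. limma 3.58.1 (R 4.3.3) fitted group means per tissue, and over all arrays for tissue comparisons, with Benjamini-Hochberg adjustment over all miRNAs tested and a threshold of 0.05; these adjusted p-values are limma's. The fit was also run on simulated arrays with independent normal noise. These had no floor step and no scaling error shared within an array, so that run does not cover either. Pairs of members were compared by exact permutation of diet within weeks.

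The 6 members, the partner list and the marker lists were chosen with earlier results of these data known. All members were named in every comparison, with every partner that was tested, and the closest of the 3 miRNAs most like a member. Same-numbered serum arrays of the 2 diets deviated together in week 1 (correlation over miRNAs of 0.55) and weakly in week 2 (0.16). In week 6 the correlation was 0.22, with the unnumbered NASH array taken as replicate 1. Serum values with a replicate block therefore stand beside results whose call it changes. In limma this block is 1 term for replicate number, shared by all weeks and diets, and does not pair arrays within a week. Same-numbered liver arrays did not deviate together in week 1 (-0.57, then 0.42 and 0.44). The number of arrays limits the precision. Alternatives were other signals, background corrections, scalings, filters, floors and blocks, and leaving out each array.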

Additional observations from a re-analysis of the deposited data

Results flagged for a closer look

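For 4 of the 6 members the diet effect in serum differed from that in liver by the interaction term of the fit over 24 arrays (limma), as it did for 52% of the 225 miRNAs tested. Serum minus liver, on the log2 scale, was -2.57 for miR-497a-5p, -1.96 for miR-15b-5p, -1.40 for miR-322-5p and -1.37 for miR-195a-5p. For miR-497a-5p it was called in all 12 alternatives other than the replicate block (-2.57 to -1.50) and with the block (-2.74). For miR-15b-5p it was called in 12 of 13 other alternatives (-2.01 to -0.94), the exception being scaling over all probes (limma, adjusted p = 0.0628). For miR-322-5p and miR-195a-5p it was called in 7 of 12 each, and not with median scaling, no scaling, quantile normalization, scaling over all probes or each tissue scaled on its own.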

How the results depend on the processing

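Over all settings, values for single members and pairs kept their sign and their side of the threshold 2994 times and changed sign without a call on either side 157 times; 176 lost a call, 53 gained one and 16 changed sign with a call on at least 1 side; the cause was not tested. Members called are counted below. Scaling over all probes called 1 (not 3) in liver over weeks, 0 at week 1, 0 at week 2 and 1 at week 6, 0 in serum over weeks and 0 at week 6 (2 each otherwise), and 1 (not 4) for serum minus liver. No scaling called 0 and 1 at weeks 1 and 2 in liver, 1 in serum over weeks and 0 at week 6, 3 (not 0) for week 2 minus week 1 in control serum, and 2 for serum minus liver. Quantile normalization called 6 liver pairs (not 11), 0 and 1 at weeks 1 and 2 in liver, 1 (not 0) for unequal weeks (miR-497a-5p, limma adjusted p = 0.0378) and 1 for week 6 minus week 2 on the NASH diet, and 2 for serum minus liver. Normexp called 4 in serum over weeks, 1, 3 and 4 by week, 2 for week 2 minus week 1 in control serum, and 6 serum pairs (not 10). No filter called 0 and 1 at weeks 1 and 2 in liver, 1 in serum over weeks and 0 at week 6. Detection on every array, which tests 3 members in serum, called 1 in serum over weeks and at week 6, 1 for serum minus liver and 2 (not 5) for liver minus serum on the NASH diet. Median scaling and the software's flag each called 1 in serum over weeks and at week 6, and the flag 1 at week 2 in liver. A floor at 0.5 of its value called 4 in serum over weeks; the mean of all probes, and limma with trend and robust, 1 at week 6 in serum; the total signal 0 at week 1 in liver; each tissue scaled on its own 2 for serum minus liver. The slide block called 3 (NASH diet) and 2 (not 4, control chow) for liver minus serum. With the replicate block 1 was called in serum over weeks and 1 at week 6, and 0 pairs in either tissue, where the smallest p that block allows (0.0312 in liver, 0.0625 in serum) gives an adjusted p of 0.0625 at best. Among results with a call on either side, signs turned for miR-15b-5p in serum (0.036 scaled over all probes, 0.15 unscaled) miR-16-5p in liver (0.25, quantile) and miR-16-5p minus miR-195a-5p in liver (0.20, quantile). Without a call, diet differences over weeks also turned for miR-15a-5p and miR-16-5p in serum and miR-16-5p and miR-322-5p in liver. For liver minus serum, scaled over all probes and unscaled, they turned for miR-16-5p on the NASH diet (0.13 and 0.30) and control chow (0.80 and 0.66), miR-15b-5p on control chow (0.24 and 0.10) and miR-497a-5p on control chow (1.76 and 1.62; 0.61 median, 0.95 quantile, 0.60 own scaling); miR-322-5p there gave -0.62 with normexp. Leaving out each array in turn gave 2 to 3 members in liver over weeks, 0 to 1, 1 to 2 and 2 to 4 by week, 1 to 3 in serum over weeks and 0 to 2 at week 6, 8 to 11 liver and 6 to 10 serum pairs; the 4 came without liver, and the 0 without serum, NASH replicate 2 of week 6. Over all miRNAs, calls (higher, lower) were 95 and 80 in liver, against 130 and 15 unscaled, 72 and 44 over all probes, 76 and 90 with quantile, 85 and 93 with median scaling and 31 and 91 with normexp. In serum they were 25 and 69, against 72 and 11 unscaled, 46 and 7 over all probes, 38 and 44 with median scaling, 34 and 38 with quantile, 38 and 48 by total signal and 13 and 255 with normexp. The median difference of all miRNAs was 0.04 in liver (0.33 unscaled, -0.14 normexp) and -0.17 in serum (0.17 unscaled, 0.10 over all probes, 0.00 median scaling, -0.43 normexp). Totals called ran from 108 to 209 in liver (175 as reported), 35 to 268 in serum (94), 49 to 1498 for serum minus liver (117), 9 to 74, 56 to 171 and 40 to 139 for liver weeks 1, 2 and 6 (58, 141 and 117), and 0 to 11, 0 to 247 and 3 to 252 for those weeks in order 1, 2 and 6 in serum (8, 24 and 77). Weak serum signals limit miR-195a-5p and miR-322-5p.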

Other observations

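The platelet, vessel wall and muscle lists gave these values. In liver, of 4 platelet miRNAs tested, 2 rose and 2 fell with the NASH diet (limma), and in serum 0 of 4 were called. Vessel wall miRNAs fell for 2 of 3 tested in liver, and 0 of 4 were called in serum. The lists overlap, so their counts are not independent. miR-126a-3p and miR-126a-5p stand in both the platelet and vessel wall lists, and miR-223-3p in both the platelet and leukocyte lists. Muscle miRNAs were not tested in liver; in serum 2 of 5 tested fell, and their summed relative signal was 1.86 to 8.98 on NASH arrays, against 13.7 to 29.6 on control arrays.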
